A study of Mus musculus with 42 samples.

Results

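Mitochondrial ribosomal protein genes were taken from the expression table of the *Tug1* knockout series as every gene whose symbol begins with *Mrpl* or *Mrps* and a number, pseudogene symbols left out. This gave 76 of the 26653 genes listed for each tissue, 47 *Mrpl* and 29 *Mrps* genes. Male mice of the strain Tug1_tm1.1Vlcg were compared with wild types in testes, prostate, spleen, eye, heart, liver and mouse embryonic fibroblasts (MEFs) at passage 2. In the knockout (KO, *Tug1*-/-), a lacZ reporter replaces the *Tug1* gene body on both alleles, while the wild types (WT) carry normal alleles. All had been crossed to C57BL/6J to generation N3, and the labels give no age. Polyadenylated RNA was sequenced from 42 samples, 22 WT and 20 KO, with 4 WT and 3 KO for testes, 3 and 2 for prostate, and 3 and 3 for each other tissue. The MEFs were derived from male littermate embryos.

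The mitochondrial ribosome translates the few proteins that mitochondrial DNA encodes, all of them core subunits of the respiratory chain and ATP synthase. Its RNA comes from the mitochondrial genome, whereas its proteins are encoded in the nucleus, made in the cytosol and imported, so that the 2 genomes must supply their parts together. Many of the proteins descend from bacterial ribosomal proteins and others were gained in mitochondria. The symbols follow the subunits, *Mrpl* for the large and *Mrps* for the small, except that the products of *Mrps30* and *Mrps18a* sit in the large subunit and that of *Mrps36* is a component of 2-oxoglutarate dehydrogenase; genes are grouped below by symbol. By textbook assignment, 45 of the 76 had a bacterial counterpart and 31 did not.

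The deposited values are fragments per kilobase of transcript per 1000000 mapped fragments (FPKM), 1 value per gene, genotype and tissue with the replicates already combined. No value per sample is given, so a WT and a KO value are set side by side without an SD and without a test, the depth behind them is unknown, and whether a difference exceeds the spread between animals could not be determined. A change is log2((KO + 0.1)/(WT + 0.1)) on the FPKM scale, which understates the change of low genes. A gene was counted as measured in a tissue at a mean of WT and KO of at least 1 FPKM, which all 76 met in all 7 tissues. As a check of the labels, *Tug1* was at 11.2 to 27.7 FPKM in the WT tissues and at 0.00753 to 0.402 FPKM in the KO tissues. The defining markers of each labelled tissue were present in it, for example *Cryaa* at 5281 FPKM in WT eyes and *Myh6* at 2644 FPKM in WT hearts.

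The 76 genes are spread over 17 chromosomes in GENCODE vM21 on GRCm38, the build that the submitters' processing notes name as mm10. Of the 10 on chromosome 11, which carries *Tug1*, the nearest was *Mrps24*, whose start lies 2066007 bp from that of *Tug1*. The library kit did not keep the strand, and 41 of the 76 overlap another annotated gene, 35 of them a gene on the other strand, so reads in those overlaps cannot be assigned with certainty. The interval that the table gives differed from the annotated gene by more than 1000 bp in 33 of the 76. In vM21, 3 members have pseudogenes that bear their symbol, 5 in all, whose reads could be split with the parent gene.

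RefSeq start regions, 250 bases before to 50 after a gene's start (300 bases, GRCm38.p6), were matched by symbol for 67 of the 76 genes, in 73 windows. Letters that match 3 factors known to act at genes of mitochondrial function were searched on both strands, namely GCGCANGCG for the core of NRF-1, CCGGAAGT for ETS factors such as GABPA, and AAGATGGCG for YY1. The NRF-1 letters were found in 20.5% of the members' windows, in 6.25% of all 32851 windows and in 10.2% of the windows of genes measured in at least 1 tissue. The ETS letters were found in 16.4%, 3.89% and 5.99% of the same sets, and the YY1 letters in 11.0%, 1.40% and 2.20%. At least 1 of the 3 was found in 33 of the members' 73 windows (45.2%), in 10.6% of all windows and in 16.9% of those of measured genes. Matches of different motifs overlapped in 0 of the members' windows. For genes of the respiratory chain, the shares were 31.8% for NRF-1, 7.58% for ETS, 10.6% for YY1 and 45.5% for at least 1 of them. For cytosolic ribosomal protein genes they were 13.3%, 16.0%, 8.0% and 33.3%. A match describes letters and was not measured as a binding site.

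The 120 bases before the most upstream annotated start are shown for 4 genes that were among the 7 with the largest changes in eyes (*Mrpl42*, *Mrpl12*, *Mrpl16* and *Mrpl30*) and for *Mrps22*, which had the highest change in prostate. They lie at chr10:95501950-95502069 on the minus strand, chr11:120484493-120484612, chr19:11770271-11770390 and chr1:37890357-37890476 on the plus strand and chr9:98601680-98601799 on the minus strand, all in GRCm38.p6. Each reads 5′ to 3′ toward its gene, and capitals mark matches to the NRF-1 letters in *Mrpl12* and *Mrpl30* and to the ETS letters in *Mrps22*.
Mrpl42: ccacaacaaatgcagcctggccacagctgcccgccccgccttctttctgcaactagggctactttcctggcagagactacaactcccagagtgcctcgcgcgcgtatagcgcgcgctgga
Mrpl12: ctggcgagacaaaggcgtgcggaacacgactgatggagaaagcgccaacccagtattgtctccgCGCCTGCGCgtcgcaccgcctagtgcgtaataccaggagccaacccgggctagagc
Mrpl16: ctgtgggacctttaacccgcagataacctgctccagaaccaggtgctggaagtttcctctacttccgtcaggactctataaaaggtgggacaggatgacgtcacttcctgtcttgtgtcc
Mrpl30: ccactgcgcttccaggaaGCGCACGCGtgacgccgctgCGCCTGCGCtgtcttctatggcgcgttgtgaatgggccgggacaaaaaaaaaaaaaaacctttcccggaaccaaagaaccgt
Mrps22: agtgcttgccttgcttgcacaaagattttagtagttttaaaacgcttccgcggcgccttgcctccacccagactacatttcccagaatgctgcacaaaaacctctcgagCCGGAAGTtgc
*Mrpl30* has 2 NRF-1 matches in this stretch and *Mrpl12* has 1, whereas *Mrpl42* and *Mrpl16* have none of the 3 motifs there. In the whole 300-base window *Mrpl42* has 1 match to the YY1 letters, and *Mrpl33* and *Mrpl51*, also among the 7, have 1 each to the ETS letters. Over all members with a window, the median change in eyes was 0.13 in the 15 with the NRF-1 letters and 0.14 in the 52 without.

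To compare tissues, FPKM values of each genotype and tissue were rescaled to sum to 1000000, the scale of transcript abundance written as TPM. WT levels of the mitochondrial ribosomal protein genes were highest in heart, with a median of 86.6 TPM, followed by prostate at 63.8, MEFs at 53.3, eye at 44.8, spleen at 44.5, liver at 43.9 and testes at 32.9. Heart held the highest level of 52 of the 76 genes and testes the lowest level of 42. The summed level of all 76 was 8702 TPM in WT heart and 3503 TPM in WT testes. Eye, spleen and liver lay close together, and their order was not kept under other scalings. The sums hold the mRNAs of mitochondrial DNA. Some of these were listed at 0 as a failed estimate would be, 11 of the 13 in at least 1 genotype of heart. Another rescaling left out chromosome M and genes listed at 0, meaning at 0 in either genotype of any of the 7 tissues. It kept 16046 genes in the sum and also dropped genes expressed in only some tissues. Liver then came before eye and MEFs, and heart and testes kept their places. Leaving out chromosome M alone was not run.

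**Figure D1:**
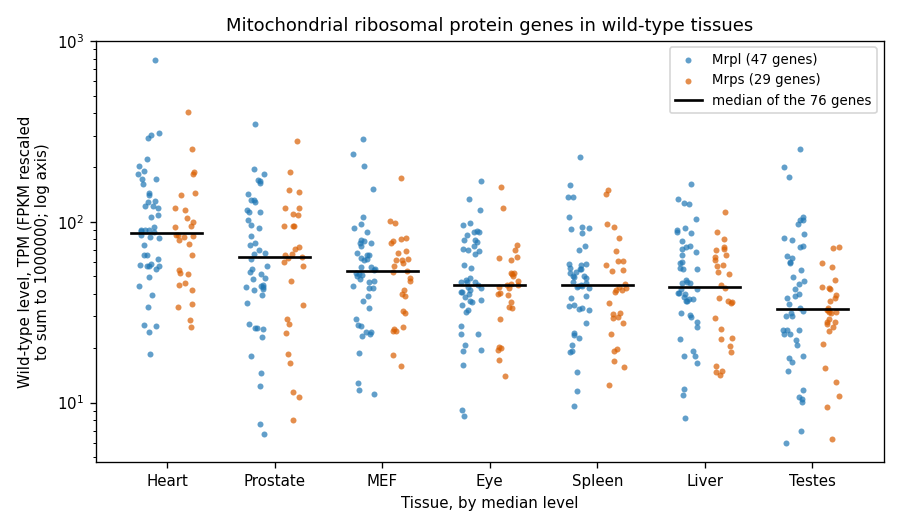
WT level of each of the 76 genes in each tissue, as FPKM rescaled to 1000000 per tissue on a log axis, with *Mrpl* genes in blue, *Mrps* genes in orange and the median of all 76 as a black line. The median falls from 86.6 TPM in heart to 32.9 TPM in testes, while single genes within a tissue spread over more than a factor of 10.

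The *Mrpl* and *Mrps* genes were expressed at like levels: their medians were 89.9 and 83.1 TPM in WT heart, 57.0 and 65.5 in prostate, and 38.0 and 31.6 in testes. Single genes differed much more than these groups. Within a tissue, the gene at the 90th percentile exceeded the gene at the 10th percentile by 4.04 times in MEFs and by 9.08 times in prostate, the lowest and highest of the 7. FPKM is a scale per transcript length, so these levels can be compared between genes, as far as the transcript models hold.

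Over the tissues, the highest median levels belonged to *Mrpl52* (162 TPM), *Mrpl33* (159), *Mrps21* (156), *Mrpl48* (137) and *Mrpl17* (122). *Mrpl33* and *Mrps21* have bacterial counterparts, while *Mrpl52* and *Mrpl48* do not. The lowest median levels were those of *Mrpl35* (11.0 TPM), *Mrpl1* (11.8), *Mrps27* (14.1), *Mrpl19* (16.1) and *Mrpl47* (19.3). The mRNAs of proteins that join 1 particle thus differed more than 10-fold in median level.

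*Mrpl42*, a large subunit protein without a bacterial counterpart, had the highest level of any member in any WT tissue, 789 TPM (481 FPKM) in heart. Its level was 42.5 TPM in testes, 18.5 times lower. *Mrpl14*, counterpart of a bacterial protein at the face between the subunits, ranged from 10.8 TPM in testes to 184 TPM in heart. *Mrpl47* ran the other way, with 103 TPM in testes against 14.5 to 33.7 TPM in the 6 other tissues. The 8 genes with their highest level in testes were *Mrpl1*, *Mrpl20*, *Mrpl38*, *Mrpl39*, *Mrpl47*, *Mrpl54*, *Mrps11* and *Mrps22*.

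Testes thus stood apart in the order of the members and not only in their level. As a description over 76 genes, which are not independent of each other, Spearman's rank correlation between WT levels of 2 tissues was 0.30 to 0.42 in the 6 pairs with testes and 0.70 to 0.86 in the 15 pairs without. KO levels gave 0.34 to 0.48 and 0.71 to 0.87. Within a tissue, WT and KO levels had a rank correlation of 0.984 to 0.997, so the ranking of the members in each tissue was nearly the same in both genotypes.

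Changes between genotypes were small. Of the 532 values (76 genes in 7 tissues), 0 passed 1.5 times in either direction and 20 passed 1.2 times. The range was from 0.78 times WT to 1.36 times WT. The share of all measured genes past 1.5 times in either direction was 1.92% in testes, 3.08% in prostate, 6.02% in spleen, 3.51% in eye, 2.32% in heart, 4.81% in liver and 3.18% in MEFs, against 0 of 76 members in each.

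**Figure D2:**
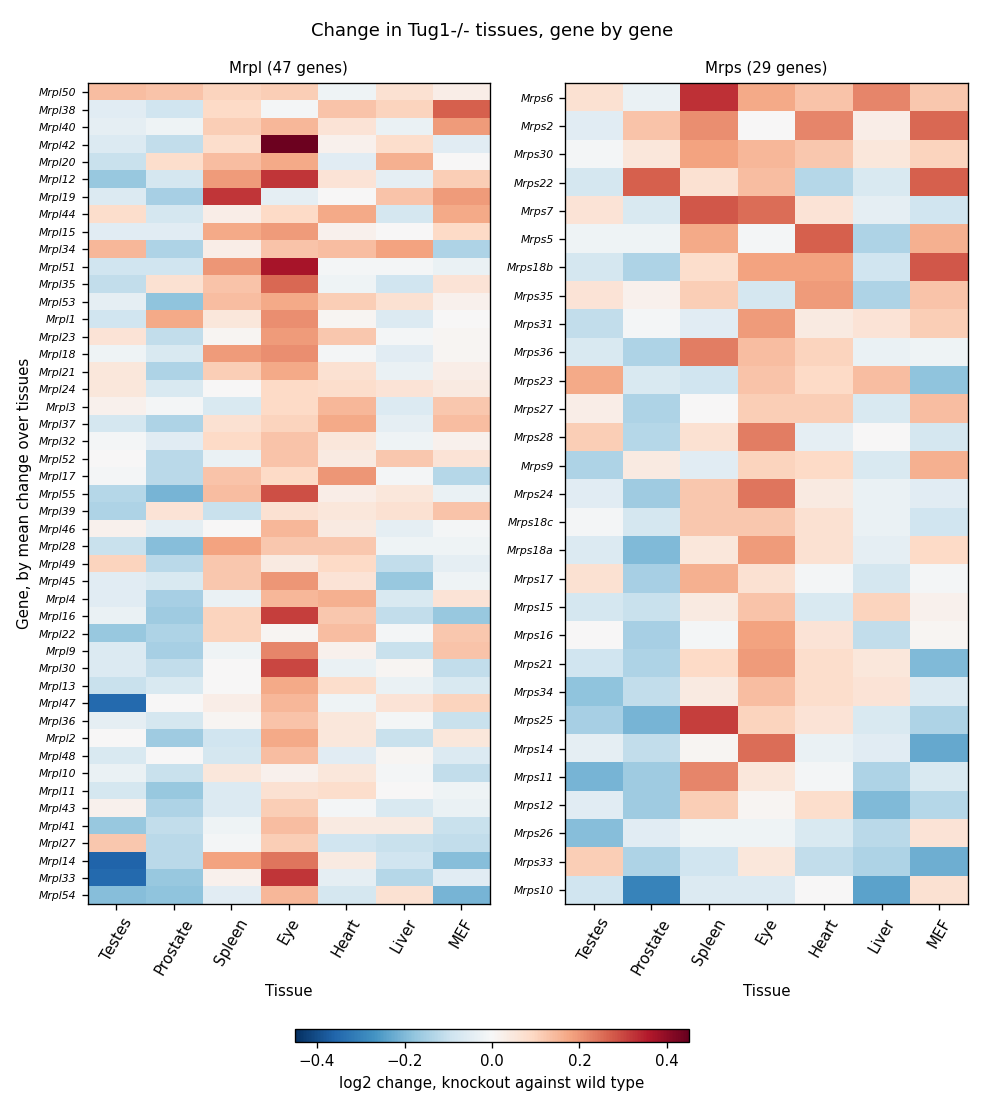
Log2 change of each of the 76 genes (rows, ordered by mean change) in each tissue (columns), KO against WT, for *Mrpl* genes on the left and *Mrps* genes on the right; red is higher and blue lower in KO. The eye column is red for 69 of 76 genes and the prostate column blue for 64 of 76.

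The tissues nevertheless differed in the sign and median of the change, which was 0.14 in eye, 0.07 in spleen, 0.05 in heart, 0.01 in MEFs, -0.03 in liver, -0.05 in testes and -0.11 in prostate. The members lay close together in each tissue, with an interquartile range of 0.10 in eye against 0.21 for all genes and of 0.18 against 0.24 in MEFs. All genes were taken down to a mean of 1 FPKM, whereas the lowest value of any member was 3.20 FPKM. Genes of like level were not compared, for these spreads or for the counts past a limit. Library-wide scaling bears on shifts of this size. Rescaling to 1000000 moved the median of all genes by 0.10 in testes and 0.16 in liver, by -0.08 in heart, by 0.06 in prostate and MEFs, and by -0.03 in spleen and eye. The medians of testes, liver and heart changed sign with it, to 0.05, 0.13 and -0.02, whereas those of eye (0.11), spleen (0.04), MEFs (0.07) and prostate (-0.05) did not. The sums hold values at 0 in 1 genotype alone: *mt-Cytb* and *mt-Nd1* were at 0 in WT and at 9682 and 10124 FPKM in KO heart, and *mt-Atp6* and *mt-Atp8* at 20520 and 34631 FPKM in WT and at 0 in KO liver. Chromosome M and genes at 0 in either genotype of any tissue were then left out of the sums. The medians were 0.01 in heart, with the sign as deposited, and 0.02 in liver and 0.04 in testes, with the opposite sign. The genes left out include tissue products such as *Pbsn*, at 25020 FPKM in WT prostate and 0 in testes.

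**Figure D3:**
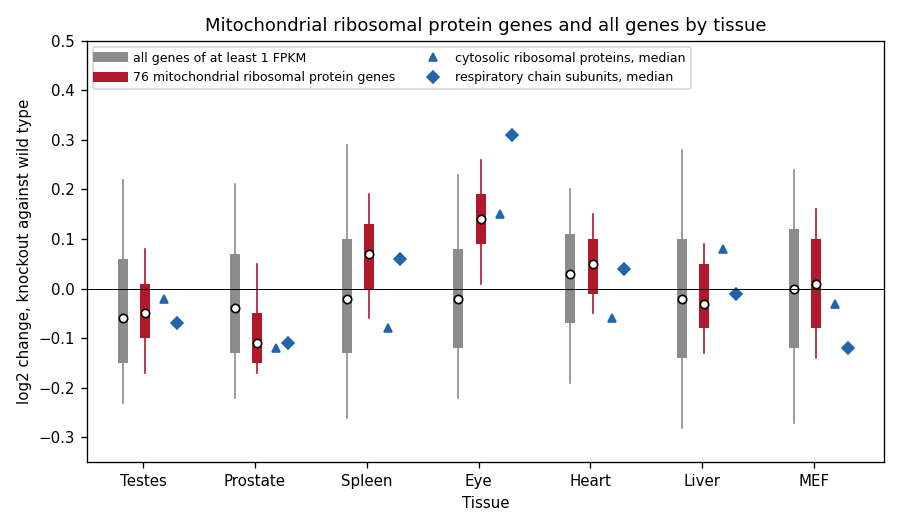
Log2 change, KO against WT, in each tissue for all genes of at least 1 FPKM (grey) and the 76 mitochondrial ribosomal protein genes (red), with boxes for the middle 50%, lines for the 10th to 90th percentile and circles for the median; blue marks give the medians of cytosolic ribosomal protein and respiratory chain genes. The members' median is 0.14 in eye, where that of all genes is -0.02, and -0.11 in prostate, where that of all genes is -0.04.

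In eyes, 69 of the 76 mitochondrial ribosomal protein genes were higher in KO, with a median change of 0.14, against 43.5% of all 14298 measured genes and a median of -0.02. Higher values were listed for 45 of the 47 *Mrpl* genes and 24 of the 29 *Mrps* genes, with medians of 0.15 and 0.13. Of the 76, 7 were more than 1.2 times higher, against 8.62% of all genes, and 0 were more than 1.2 times lower, against 6.73%. The count past 1.2 times was thus near the background, while the sign was shared by more of the members than of all genes. The count of higher members was 66 after rescaling to 1000000 and 73 after centring on the median of all genes. With that rescaling the median was 0.11 for members and -0.06 for all genes.

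*Mrpl42* (ENSMUSG00000062981.4, chr10:95480805-95501940 on the minus strand in vM21, with no overlapping gene) changed most, from 44.3 FPKM in WT to 60.2 FPKM in KO eyes (0.44, 1.36 times). *Mrpl51*, which also lacks a bacterial counterpart, went from 30.2 to 39.0 FPKM (0.37). *Mrpl12*, counterpart of the bacterial stalk protein that recruits translation factors, went from 16.9 to 21.2 FPKM (0.32). The others past 1.2 times were *Mrpl33*, *Mrpl16*, *Mrpl30* and *Mrpl55*, so that all 7 had *Mrpl* symbols, as did 47 of the 76 members. The highest changes of *Mrps* genes, 0.25 in *Mrps7* and *Mrps14*, lay just under the limit. The lowest changes were those of *Mrps35* (12.8 and 12.1 FPKM, -0.08), *Mrps10* (16.9 and 16.3 FPKM, -0.06) and *Mrpl19* (6.07 and 5.91 FPKM, -0.04). Members with and without a bacterial counterpart had medians of 0.15 and 0.14.

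Markers of other tissues moved in the same eye samples. The 3 skeletal muscle genes were all higher in KO eyes, *Acta1* at 276 and 551 FPKM, *Ckm* at 248 and 455 FPKM and *Myh4* at 116 and 197 FPKM, and their summed level was 1.88 times that of WT. Of the blood markers, *Hba-a1* was at 20.4 and 60.4 FPKM and *Alas2* at 4.81 and 13.8 FPKM. The eye markers *Cryaa* (5281 and 5290 FPKM) and *Rpe65* (88.8 and 90.0 FPKM) were nearly level. *Cyp2e1*, a liver marker, was at 9.54 and 45.3 FPKM. The other liver markers, *Ttr* (485 and 506 FPKM) and *Apoa1* (0.125 and 0.119 FPKM), were nearly level. The liver markers summed to 1.12 times WT, and *Ttr* made up most of that sum. The part of these cells or tissues in the change of the members was not tested, and in whole tissue a changed number of cells of a type cannot be told apart from changed RNA per cell.

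Transcript length also moved with the change in eyes. Among genes with a coding transcript in vM21, Spearman's rank correlation between length and change in eyes was -0.27 over 13403 genes and -0.26 over the 76 members. Genes under 1000 nt other than ribosomal protein and respiratory chain genes had a median of 0.10, those of 1000 to 1999 nt a median of 0.03 and those of 2000 nt or more a median of -0.04. The members' medians in the same classes were 0.16 (24 genes), 0.14 (29 genes) and 0.11 (23 genes), above the other genes in each class. All 24 members under 1000 nt were higher in KO eyes, as were 27 of the 29 of middle length and 18 of the 23 longest. Of the other genes in the same classes, 71.9%, 56.9% and 38.1% were higher.

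**Figure D4:**
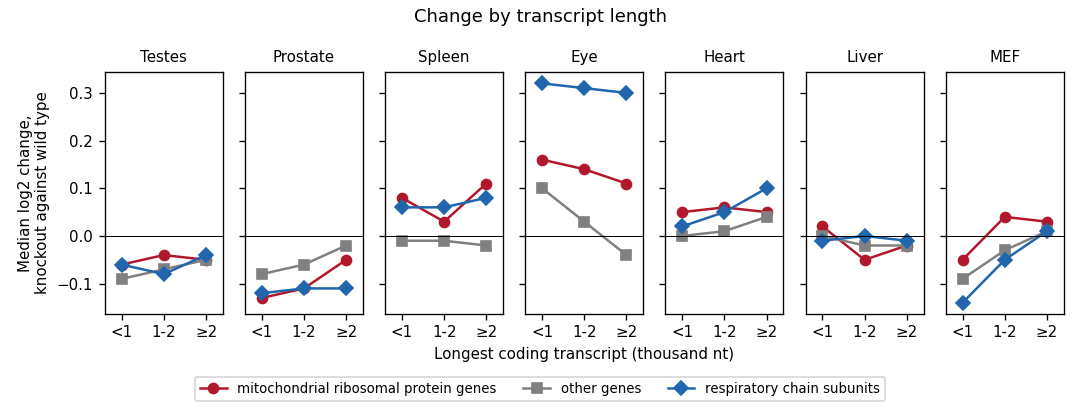
Median log2 change, KO against WT, in 3 classes of the longest coding transcript (under 1000 nt, 1000 to 1999 nt, 2000 nt or more) for mitochondrial ribosomal protein genes (red circles), other genes (grey squares) and respiratory chain genes (blue diamonds), 1 panel per tissue. In eye all 3 lines fall with length and the members stay above the other genes, at 0.16, 0.14 and 0.11 against 0.10, 0.03 and -0.04.

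Nuclear genes of the respiratory chain complexes and ATP synthase were higher in KO eyes in 73 of 74 cases, with a median of 0.31 and 57 genes past 1.2 times. The median change of the mitochondrial ribosomal protein genes was thus less than that of the respiratory chain genes there. Cytosolic ribosomal protein genes were higher in 84 of 85 cases, with a median of 0.15. Of the 13 mRNAs that mitochondrial DNA encodes, a set chosen after its values had been seen, 11 had a value above 0 in both genotypes of eye, 8 of them higher in KO with a median over the 11 of 0.33. *mt-Co1*, which every cell uses, was listed at 5628 FPKM in WT and at 0 in KO eyes, as a failed estimate would be.

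In prostate, 64 of the 76 members were lower in KO and 12 were higher, against 39.1% of all 12166 genes higher. Their median was -0.11 (0.93 times WT) and that of all genes -0.04. Only *Mrps22*, a small subunit protein without a bacterial counterpart, passed 1.2 times upward, from 4.85 to 5.85 FPKM (0.27), against 7.86% of all genes. *Mrps10* (ENSMUSG00000034729.10, chr17:47368887-47381417 on the plus strand, with no overlapping gene), of the head of the small subunit, alone passed it downward, from 38.6 to 31.2 FPKM (-0.30), against 7.01%. The count of higher members was 21 after rescaling to 1000000, with a median of -0.05 against 0.02 for all genes. It was 31 when genes of chromosome M and genes listed at 0 were left out of the sum, with medians of -0.02 and 0.05.

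Next in prostate were *Mrpl55* (31.4 and 27.1 FPKM, -0.21) and *Mrps25* (17.5 and 15.2 FPKM, -0.21) among the lower genes, and *Mrpl50* (15.7 and 17.2 FPKM, 0.13) and *Mrps2* (10.1 and 11.0 FPKM, 0.13) among the higher. Members under 1000 nt had a median of -0.13 and those of 2000 nt or more a median of -0.05, while other genes had -0.08 and -0.02. Respiratory chain genes were higher in 2 of 74 cases, with a median of -0.11 like that of the members, and cytosolic ribosomal protein genes had a median of -0.12. The seminal vesicle gene *Svs5* was at 4182 FPKM in WT and 11507 FPKM in KO prostate, *Svs2* at 4341 and 4770 FPKM and *Svs4* at 193 and 259 FPKM. The summed level of these 3 markers was 1.90 times that of WT, mainly through *Svs5*. *Pbsn* was at 25020 and 21141 FPKM. Of the liver markers, *Cyp2e1* was at 3.51 and 23.6 FPKM, *Apoa1* at 0.0295 and 0.0133 FPKM and *Ttr* at 0 in both genotypes. The blood markers summed to 1.53 times WT, with *Hba-a1* at 17.6 and 29.3 FPKM and *Alas2* at 5.04 and 5.42 FPKM. Their part in the change was not tested.

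In spleen, 54 of the 76 members were higher in KO, against 45.5% of all 12618 genes, with a median of 0.07 against -0.02. The count past 1.2 times was 4 upward, against 11.2% of all genes, and 0 downward, against 9.86%. The 4 were *Mrps6* (11.4 and 14.4 FPKM, 0.33), *Mrpl19* (9.11 and 11.4 FPKM, 0.32), *Mrps25* (14.0 and 17.3 FPKM, 0.31) and *Mrps7* (17.1 and 20.7 FPKM, 0.28). The members' median of 1.05 times WT thus came with a smaller share of changes past 1.2 times than among all genes. The lowest were *Mrpl39* (11.4 and 10.6 FPKM), *Mrps23* (44.8 and 42.0 FPKM) and *Mrpl2* (21.3 and 20.1 FPKM), between -0.10 and -0.09.

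Pancreas markers were present in the KO spleens: *Prss2* was at 0.825 FPKM in WT and 407 FPKM in KO, *Cpa1* at 0.383 and 199 FPKM, and *Cela3b* at 0.102 and 115 FPKM. Blood markers were higher too, *Hba-a1* at 1087 and 2599 FPKM and *Alas2* at 212 and 437 FPKM. The B cell and leukocyte markers *Cd79a* (420 and 331 FPKM) and *Ptprc* (265 and 234 FPKM) were lower in KO. Their part in the shift of the members was not tested. Cytosolic ribosomal protein genes had a median of -0.08 in the same samples, opposite in sign to that of the mitochondrial ribosomal protein genes, and respiratory chain genes a median of 0.06.

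In heart, 55 members were higher in KO, but so were 58.6% of all 12695 genes, and the medians were 0.05 and 0.03. After rescaling to 1000000 27 members were higher, with a median of -0.02 against -0.05 for all genes. When chromosome M and genes listed at 0 were left out of the sum 44 were higher, with medians of 0.01 and -0.01. *Mrps5*, of the small subunit, was the only gene past 1.2 times upward (51.7 and 62.3 FPKM, 0.27), against 5.36% of all genes, and 0 passed it downward, against 6.52%. *Mrps2* (16.0 and 18.6 FPKM, 0.22) and *Mrpl17* (74.0 and 85.0 FPKM, 0.20) followed. *Mrps22* (17.5 and 16.0 FPKM, -0.13), *Mrps33* (115 and 107 FPKM, -0.11) and *Mrpl27* (57.4 and 53.8 FPKM, -0.09) were lowest. *Mrpl42*, by far the most expressed member in heart, was at 481 FPKM in WT and 488 FPKM in KO. *Hba-a1* was at 1351 and 638 FPKM, and its part was not tested.

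In testes, 20 members were higher and 56 lower in KO as deposited, against 36.4% of all 15143 genes higher. The medians of members and of all genes were nearly the same, -0.05 and -0.06. After rescaling to 1000000 58 members were higher, with a median of 0.05 against 0.04 for all genes. After centring on the median of all genes 43 were higher. Of the 76, 0 passed 1.2 times upward, against 7.75% of all genes, and 3 passed it downward, against 7.36%. They were all large subunit genes with a bacterial counterpart, *Mrpl14* (7.84 and 6.11 FPKM, -0.36), *Mrpl47* (75.0 and 58.7 FPKM, -0.35) and *Mrpl33* (53.8 and 42.3 FPKM, -0.35). Each overlaps a gene on the other strand, *Tmem63b* for *Mrpl14*, *Actl6a* and *Ndufb5* for *Mrpl47* and *Rbks* for *Mrpl33*. *Mrpl47* was thus lowest, relative to WT, in the tissue where its level was highest. *Mrps23* (26.7 and 30.0 FPKM, 0.17), *Mrpl34* (12.2 and 13.6 FPKM, 0.15) and *Mrpl27* (13.1 and 14.3 FPKM, 0.12) had the highest changes.

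In liver, 25 members were higher in KO as deposited and 73 after rescaling to 1000000, or 48 with chromosome M and genes listed at 0 left out of the sum, where 45.5% of all 11711 genes were higher as deposited. No direction can therefore be given for the group there. After rescaling to 1000000 the median was 0.13 for members and 0.14 for all genes, so all genes moved with the scaling. With chromosome M and genes listed at 0 left out, the medians were 0.02 and 0.03. The share of all genes higher was not counted after rescaling. As deposited, the members' median was -0.03 and that of all genes -0.02. Of the members, 0 passed 1.2 times upward or downward, against 11.0% and 11.1% of all genes. *Mrps6* (16.5 and 19.2 FPKM, 0.22), *Mrpl34* (66.5 and 75.5 FPKM, 0.18) and *Mrpl20* (88.6 and 98.7 FPKM, 0.16) were highest. *Mrps10* (64.8 and 55.0 FPKM, -0.24), *Mrps12* of the decoding site (73.5 and 64.2 FPKM, -0.20) and *Mrpl45* (18.6 and 16.5 FPKM, -0.17) were lowest.

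In MEFs, 39 members were higher and 37 lower, against 49.8% of all 11587 genes higher, with medians of 0.01 and 0.00. The count past 1.2 times was 3 upward, against 8.48%, and 0 downward, against 10.4%. Upward these were *Mrps18b* (40.7 and 49.4 FPKM, 0.28), *Mrps22* (13.1 and 15.8 FPKM, 0.27) and *Mrpl38* (18.4 and 22.2 FPKM, 0.27), none of which is among the 45 assigned a bacterial counterpart. The lowest were *Mrps14* (31.1 and 26.5 FPKM, -0.23), *Mrps33* (39.6 and 34.0 FPKM, -0.22) and *Mrpl54* (53.9 and 46.4 FPKM, -0.21). All 12 measured mRNAs of mitochondrial DNA were more than 1.2 times lower in KO MEFs, with a median of -0.52; the largest were *mt-Nd4* (1582 and 855 FPKM), *mt-Nd5* (861 and 492 FPKM) and *mt-Nd6* (955 and 555 FPKM). The members' median there was 0.01, and nuclear respiratory chain genes had a median of -0.12.

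No member kept 1 sign with a change of at least 0.1 in every tissue. Of the 76, 0 were higher in all 7 tissues, 4 were higher in 6 tissues, 2 were higher in only 1, 24 were higher in 3 and 27 in 4. *Mrpl24*, *Mrpl50*, *Mrps6* and *Mrps30* were higher in 6. *Mrps10* and *Mrps26* were higher only in MEFs, at 31.5 and 33.1 FPKM and at 20.0 and 20.8 FPKM. The signs of low changes turn with the scaling given above.

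*Mrps6*, counterpart of a bacterial protein of the small subunit platform, was lower in prostate alone (115 and 113 FPKM). Its change was 0.33 in spleen, 0.22 in liver, 0.17 in eye, 0.13 in heart, 0.12 in MEFs and 0.07 in testes. Overlap with *Slc5a3*, which lies within its annotated interval, leaves the source of some of its reads uncertain. *Mrps10* was at 27.2 FPKM in both genotypes of heart and lower in KO by 0.30 in prostate and 0.24 in liver on the log2 scale.

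Among members with at least 5 FPKM in every tissue, the change ranged most between tissues for *Mrpl33*, from -0.35 in testes to 0.32 in eye. *Mrpl14* ranged from -0.36 in testes to 0.24 in eye, *Mrpl42* from -0.11 in prostate to 0.44 in eye, *Mrps25* from -0.21 in prostate to 0.31 in spleen and *Mrpl47* from -0.35 in testes to 0.15 in eye. Eye or spleen was the highest tissue and testes or prostate the lowest for all 5. The 5 were chosen for their range, and as deposited the same tissues had the highest and lowest medians over the 76 members. As a description over the 76 genes, Pearson's r between the changes of 2 tissues was between -0.28 (eye and MEFs) and 0.39 (prostate and MEFs) in the 21 pairs, so a gene's change in 1 tissue told little about its change in another.

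**Figure D5:**
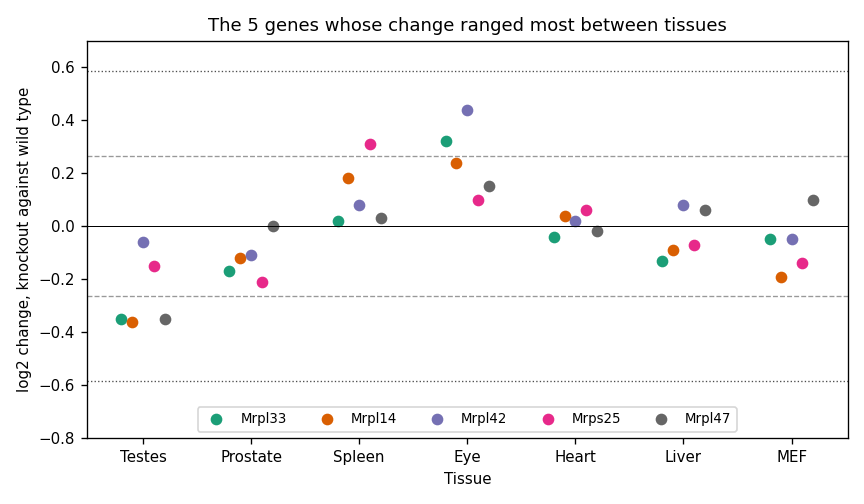
Log2 change, KO against WT, of the 5 genes whose change ranged most between tissues; dashed lines mark 1.2 times and dotted lines 1.5 times in either direction. All points lie within 1.5 times, from -0.36 (*Mrpl14* in testes) to 0.44 (*Mrpl42* in eye).

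Few other genes of mitochondrial translation passed 1.5 times. The 7 further proteins of the mitochondrial ribosome with other names, such as *Dap3* and *Ptcd3*, had 0 values past 1.5 times, and their median was 0.09 in eye, 0.10 in spleen and -0.09 in prostate and testes. *Chchd1*, a small subunit protein, was the only one past 1.2 times, at 37.2 and 46.0 FPKM in eye. The 15 mitochondrial translation factors had medians between -0.04 in liver and 0.12 in heart, and 0 passed 1.5 times.

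Of the 20 assembly factors, *Mrm1*, a methyltransferase of mitochondrial ribosomal RNA, passed 1.5 times in testes (2.00 and 3.32 FPKM). Of the 20 mitochondrial aminoacyl-tRNA synthetases and related enzymes, which charge the transfer RNAs, *Lars2* alone passed it, at 1559 FPKM in WT and 33.6 FPKM in KO prostate. *Lars2* was at 362 and 438 FPKM in testes and between 16.5 and 71.8 FPKM in the other 5 tissues, so the WT prostate value stood apart. In eyes, where the ribosomal proteins were mostly higher, 5 of the 20 synthetases were higher, with a median of -0.04, and in heart 19 of 20 were, with a median of 0.09. The 4 genes of mitochondrial transcription had medians between -0.11 in liver and 0.09 in eye.

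Among cytosolic ribosomal protein genes, *Rps4y2* passed 1.5 times upward in 6 tissues, for example from 8.32 to 105 FPKM in prostate and from 15.6 to 68.4 FPKM in heart, and was at 83.0 and 87.0 FPKM in testes. It is a close copy of *Rps4x*, between which reads may be split. *Rpl3l*, a form of *Rpl3* found in muscle, went from 18.4 to 32.8 FPKM in eye, where the muscle markers were higher too, and was level in heart (188 and 197 FPKM).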

How the data were processed

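RNA from 42 samples of 7 tissues was analysed from 1 deposited table of comparisons. The authors' values are in FPKM, 1 per genotype and tissue, with replicates pooled by the authors; per the labels, the submitters' processing notes name CASAVA 1.8.2, TopHat2, Cuffdiff and mm10, whereas the paper's methods describe another route (STAR, featureCounts, DESeq2). The table's log2 fold changes, test statistics, p-values, q-values and significance flags hold the authors' own findings and were not used. Rows of 1 tissue that matched no labelled sample were not analysed here. No counts or values per sample were used, so the depth is unknown and no interval, SD, test or pairing could be had.

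Changes were log2((KO + 0.1)/(WT + 0.1)) for genes with a mean of at least 1 FPKM, and counts used limits of 1.2, 1.5 and 2 times. Members were named as those past 1.5 times, the 3 highest and 3 lowest changes per tissue at a mean of at least 5 FPKM, the 5 highest and 5 lowest median levels, those of 1 sign in all tissues with at least 0.1 in each, and the 5 whose change ranged most at 5 FPKM in every tissue; genes of other lists were named past 1.5 times. Further genes were named after their values were seen: those past 1.2 times, those higher in 6 tissues or in 1, those highest in testes and *Chchd1*. The members and lists were chosen with earlier results of these data known. *Gatb* was not found by that symbol but was included under its older symbol *Pet112*, and a few other genes of the lists were not found by symbol. Alternatives were pseudocounts of 1 and 0.01, a mean of 5 FPKM, no filter, centring, rescaling to 1000000, members measured in every tissue and, chosen after seeing the data, rescaling without chromosome M and genes listed at 0. Genes listed at 0 were those at 0 in either genotype of any tissue analysed. Identifiers matched GENCODE vM21 for 75 members and the symbol for 1. The steps were tested on simulated data. Calculations ran in Python 3.11.15 (pandas 2.3.3, numpy 2.4.6), with scipy 1.17.1 for rank correlations and figures by matplotlib 3.10.9. Some markers of the lists are not reported here.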

Additional observations from a re-analysis of the deposited data

How the results depend on the processing

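Medians were counted as unmoved within 0.05 on the log2 scale, a tolerance set for this purpose, and counts within 1.5 times. Of 56 alternative medians 47 were unmoved, and of 70 alternative counts 64 were, among them all counts at the limit of 2 times. Some of these could not move. All 76 members met the filter in every tissue, so no filter and members measured in every tissue used the same genes. With 0 members past 1.5 times, the counts at 2 times were fixed at 0. All medians that moved did so under centring or rescaling. In testes the median of -0.05 became 0.01 after centring on all genes, 0.05 after rescaling to 1000000 and 0.04 after rescaling without chromosome M and genes listed at 0. Rescaling to 1000000 gave -0.05 in prostate, -0.02 in heart, 0.13 in liver and 0.07 in MEFs. Rescaling without chromosome M and genes listed at 0 gave -0.02 in prostate and 0.02 in liver. At a limit of 1.2 times, the counts of 0 became 3 in testes, 2 in prostate, 4 in spleen, 7 in eye, 1 in heart and 3 in MEFs, which follows from the lower limit. The highest median WT level was 2.63 times the lowest after rescaling, 3.11 times as deposited, 2.46 times with KO values and 2.21 times without chromosome M and genes listed at 0; heart was first in all 4, while testes was last in the 3 rescaled orders and eye was last as deposited.

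Leaving out a replicate was not run, because values per sample were not used here. No paired analysis was possible because no column carries a replicate number. Unknown depth leaves the error of every change unmeasured.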
